A study of Mus musculus with 473 samples.

Results

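Otx2, Cck, Lpl, Adcyap1, Gpr83, Casr and Shisa2 are genes associated with the dopaminergic neurons of the ventral tegmental area, a ventral midbrain nucleus. These 7 genes were followed here out of 28952 features in a table of single-cell expression from mouse brain. They were chosen on measured values: their levels in these same postnatal midbrain cells, cluster by cluster, were known when the list was made. Their levels are therefore given as a description, with no test.

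The cells came from Th:EGFP mice, which carry the bacterial artificial chromosome transgene Tg(Th-EGFP)DJ76Gsat/Mmnc on a Swiss Webster background, so that regulatory sequence of Th, the gene of tyrosine hydroxylase, drives green fluorescent protein. Hemizygous males were mated to wild-type females, and every group consists of EGFP-positive, propidium iodide-excluding cells sorted singly and made into Smart-Seq2 libraries. At postnatal day 7 (P7) the regions were midbrain (MB), forebrain (FB, dissected around the hypothalamus) and olfactory bulb (OB). At embryonic day 15.5 (E15.5) they were midbrain and forebrain. Each P7 region was pooled over 5 pups and each E15.5 region over 4 embryos before dissociation, and the P7 tissue had a longer dissociation and a density gradient. Cells were chosen by EGFP, so a group can hold cells of any kind in which the transgene is active. Of 473 cells, 396 passed the quality control recorded in the labels, namely 75 of P7 MB, 81 of P7 FB, 68 of P7 OB, 88 of E15.5 MB and 84 of E15.5 FB. The labels divide P7 MB into the clusters P7.MB.1 (39 cells), P7.MB.2 (11), P7.MB.3 (10) and P7.MB.4 (15), and E15.5 MB into E15.MB.2 (20) and E15.MB.1 (68). Since each group is 1 pool of animals, no test between groups was possible, and every SD and interval below describes cells of that pool.

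The dopaminergic neurons of the ventral midbrain fall into those of the ventral tegmental area, which project to the ventral striatum and cortex and take part in reward and motivation, and those of the substantia nigra, which project to the dorsal striatum and serve movement. Otx2 is a homeodomain transcription factor that patterns the embryonic fore- and midbrain and stays on in part of the ventral tegmental area after birth. Cck and Adcyap1 encode the precursors of the neuropeptides cholecystokinin and PACAP, Gpr83 and Casr encode G protein-coupled receptors (Casr senses extracellular calcium), Lpl encodes lipoprotein lipase, and Shisa2 belongs to a family of membrane proteins whose founding member, in Xenopus, holds back Wnt and Fgf receptors in the endoplasmic reticulum.

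All 7 genes are protein coding in the GENCODE M21 annotation of GRCm38 (mm10). Otx2 (ENSMUSG00000021848.15) lies at chr14:48657677-48673819 on the minus strand and Shisa2 (ENSMUSG00000044461.5) on the same chromosome at chr14:59625308-59631660 on the plus strand. Cck (ENSMUSG00000032532.6) lies at chr9:121489824-121495694 on the minus strand and Gpr83 (ENSMUSG00000031932.14) at chr9:14860210-14870789 on the plus strand. Adcyap1 (ENSMUSG00000024256.6) lies at chr17:93199017-93206537 on the plus strand, Casr (ENSMUSG00000051980.13) at chr16:36493696-36562141 on the minus strand and Lpl (ENSMUSG00000015568.15) at chr8:68880491-68907448 on the plus strand. The members thus come from 5 chromosomes, and the pairs that share a chromosome do not overlap.

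Promoter windows of 300 bases, covering 250 bases before and 50 bases after an annotated start, were taken from RefSeq (GRCm38.p6). They held 10 windows for 6 of the 7 genes, 4 of them for Otx2 and 2 for Adcyap1. Shown 5′ to 3′ on the gene's strand are windows of the 5 members with the largest log2 fold in P7.MB.1 over P7.MB.4; of the 4 Otx2 windows, the one that holds TAATCC was picked for showing. Capitals mark, on either strand, TAATCC (a core bound by Otx-type homeodomains), TGCGTCA (a variant of the cAMP response element), CACGTG (an E-box) and TATAAA.
Otx2, chr14:48665060-48665359, minus strand: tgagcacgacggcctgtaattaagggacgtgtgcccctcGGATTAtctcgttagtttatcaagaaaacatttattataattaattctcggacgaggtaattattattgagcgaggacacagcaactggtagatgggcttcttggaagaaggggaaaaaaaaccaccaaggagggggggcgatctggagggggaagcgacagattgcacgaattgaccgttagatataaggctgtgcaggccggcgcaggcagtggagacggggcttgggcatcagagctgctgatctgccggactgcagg
Cck, chr9:121495645-121495944, minus strand: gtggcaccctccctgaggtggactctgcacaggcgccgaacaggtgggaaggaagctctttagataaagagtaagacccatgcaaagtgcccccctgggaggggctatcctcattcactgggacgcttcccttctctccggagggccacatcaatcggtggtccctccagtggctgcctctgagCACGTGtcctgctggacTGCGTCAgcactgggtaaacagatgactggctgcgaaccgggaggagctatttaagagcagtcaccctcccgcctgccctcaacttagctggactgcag
Gpr83, chr9:14859960-14860259, plus strand: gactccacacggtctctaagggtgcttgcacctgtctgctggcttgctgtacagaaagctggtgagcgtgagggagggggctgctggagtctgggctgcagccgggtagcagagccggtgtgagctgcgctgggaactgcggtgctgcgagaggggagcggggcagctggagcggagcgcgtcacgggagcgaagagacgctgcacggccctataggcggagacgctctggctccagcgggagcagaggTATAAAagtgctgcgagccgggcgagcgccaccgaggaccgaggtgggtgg
Casr, chr16:36562085-36562384, minus strand: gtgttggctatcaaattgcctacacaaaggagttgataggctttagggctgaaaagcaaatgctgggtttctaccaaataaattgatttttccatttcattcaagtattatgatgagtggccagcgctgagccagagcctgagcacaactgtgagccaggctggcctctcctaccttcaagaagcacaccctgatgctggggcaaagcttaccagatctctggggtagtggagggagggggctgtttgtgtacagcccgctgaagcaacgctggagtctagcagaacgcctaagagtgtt
Shisa2, chr14:59625031-59625330, plus strand: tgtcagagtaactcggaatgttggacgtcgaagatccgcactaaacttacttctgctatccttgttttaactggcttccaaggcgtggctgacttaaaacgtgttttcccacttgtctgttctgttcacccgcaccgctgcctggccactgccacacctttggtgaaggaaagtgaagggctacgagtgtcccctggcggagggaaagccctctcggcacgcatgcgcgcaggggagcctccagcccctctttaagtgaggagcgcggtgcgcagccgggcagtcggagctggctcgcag
In the Cck window CACGTG began at position -66 and TGCGTCA at position -49, counted from the start. TGCGTCA was in 2 of the 10 windows (Cck and another Otx2 window) and in 2.12% of the 32851 windows of all genes, and CACGTG in the Cck window and in 7.15% of all. TAATCC was in 1 Otx2 window, on the opposite strand at position -211, and in 7.06% of all windows. TATAAA was in 3 windows (Gpr83, 1 of Otx2 and 1 of Adcyap1) and in 13.6% of all. It began at position -1 in the Gpr83 window, across the annotated start, at -192 in the Otx2 window and at -58 in the Adcyap1 window. Casr and Shisa2 held none of these 4. Another 8 motifs were searched on both strands. TAATTA was in 2 Otx2 windows (5.29% of all), CAGATG in the Cck window and 1 Otx2 window (17.2%), and CCAAT in 1 Otx2 and 1 Adcyap1 window (37.4%). TAATCT (8.19% of all), TGACGTCA (1.79%), GGGCGG (35.7%), ATTGGC (14.7%; it overlaps the reverse complement of CCAAT) and AAAGGTCA (1.51%) were in none of the 10. The motifs were chosen after the windows were seen, and a match describes letters in a window only. No motif was shared by all members.

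Before the levels are given, the identity of the columns has to be stated. On 2 of the 3 P7 library plates, each holding cells of all 3 regions, the number of genes per cell computed from a column did not follow the number in the label of the same name (r = -0.03 over 95 cells and r = -0.05 over 94). It did so once the columns of the 2 plates were exchanged well by well (r = 0.9987 and 0.9992), and by name on the other P7 plate (r = 0.9994) and on both E15.5 plates (0.996 and 0.9985). The P7 values below use the exchange, and the main ones are repeated for the plate whose names match alone. The unit is FPKM, fragments counted per transcript length and per sequenced total, so that levels of different genes can be set side by side. A cell is counted as having a gene at an FPKM of 1 or more. A fold is log2 of (mean FPKM + 1) in the first set over (mean FPKM + 1) in the second, which understates changes of low genes. The number of reads per cell is unknown; the labels' number of genes per cell had a median of 6185 in P7 MB, 4916 in P7 FB, 3290 in P7 OB, 6228 in E15.5 MB and 5555 in E15.5 FB. A value of 0 can be a missed transcript: Actb, Gapdh, Eef1a1 and Hsp90ab1, which cells of all kinds use, were listed at 0 in 0.667% of their values in P7 MB and in 1.10 to 2.38% in the other groups. Summed FPKM per cell also differed between plates, with a median of 516099 on the matched P7 plate, 198567 and 258116 on the exchanged plates, and 1115370 and 765261 on the E15.5 plates.

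Cluster P7.MB.1 carried the markers of a midbrain dopaminergic neuron, and so did P7.MB.3 and P7.MB.4. The sum of 15 midbrain dopaminergic genes had a median of 2654 FPKM in P7.MB.1, 1501 in P7.MB.3, 3739 in P7.MB.4 and 87.6 in P7.MB.2. In P7.MB.1 Th averaged 1880 FPKM, Slc6a3 (the dopamine transporter) 474 FPKM and Slc18a2 (the vesicular monoamine transporter) 327 FPKM. All 39 cells had each of the 3. The calcium-binding proteins Calb1 (91.4 FPKM, in every cell) and Calb2 (321 FPKM), known markers of the ventral tegmental area, were present as well. Their levels in the other P7 MB clusters are not given here, so their presence does not set P7.MB.1 apart. A list of 10 genes known from the ventral tegmental area, members excluded, had 8 at least 2-fold higher and none lower against P7.MB.4. Of all features, 3.28% were higher and 4.41% lower there. The list had 5 higher and 1 lower against P7.MB.3 (7.06% and 6.71% of all features). Against P7.MB.2 it had 4 higher and 3 lower (5.82% and 4.96%). Nts, a gene of that list, had no signal in P7.MB.1. This list and the nigral list that follows were chosen with earlier results of these data known, so their counts are a description. Of 15 genes known from the substantia nigra, 11 were at least 2-fold lower and none higher in P7.MB.1 than in P7.MB.4, against 4.41% of all features lower and 3.28% higher. The same list had 9 higher and 4 lower against P7.MB.3 (7.06% and 6.71% of all features) and 6 higher and 2 lower against P7.MB.2 (5.82% and 4.96%). Sox6 (a transcription factor) averaged 5.48 FPKM in P7.MB.1 and 21.5 FPKM in P7.MB.4. P7.MB.4 had more Slc6a3 (2078 FPKM) and the nigral gene Aldh1a1 in every cell. P7.MB.2 had Slc6a3 at an FPKM of 1 in none of its cells and the glutamate transporter Slc17a6 in all 11, and P7.MB.3 had the peptide gene Vip in all 10. The labels name no cluster for a nucleus, so the clusters are called by their label.

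**Figure D1:**
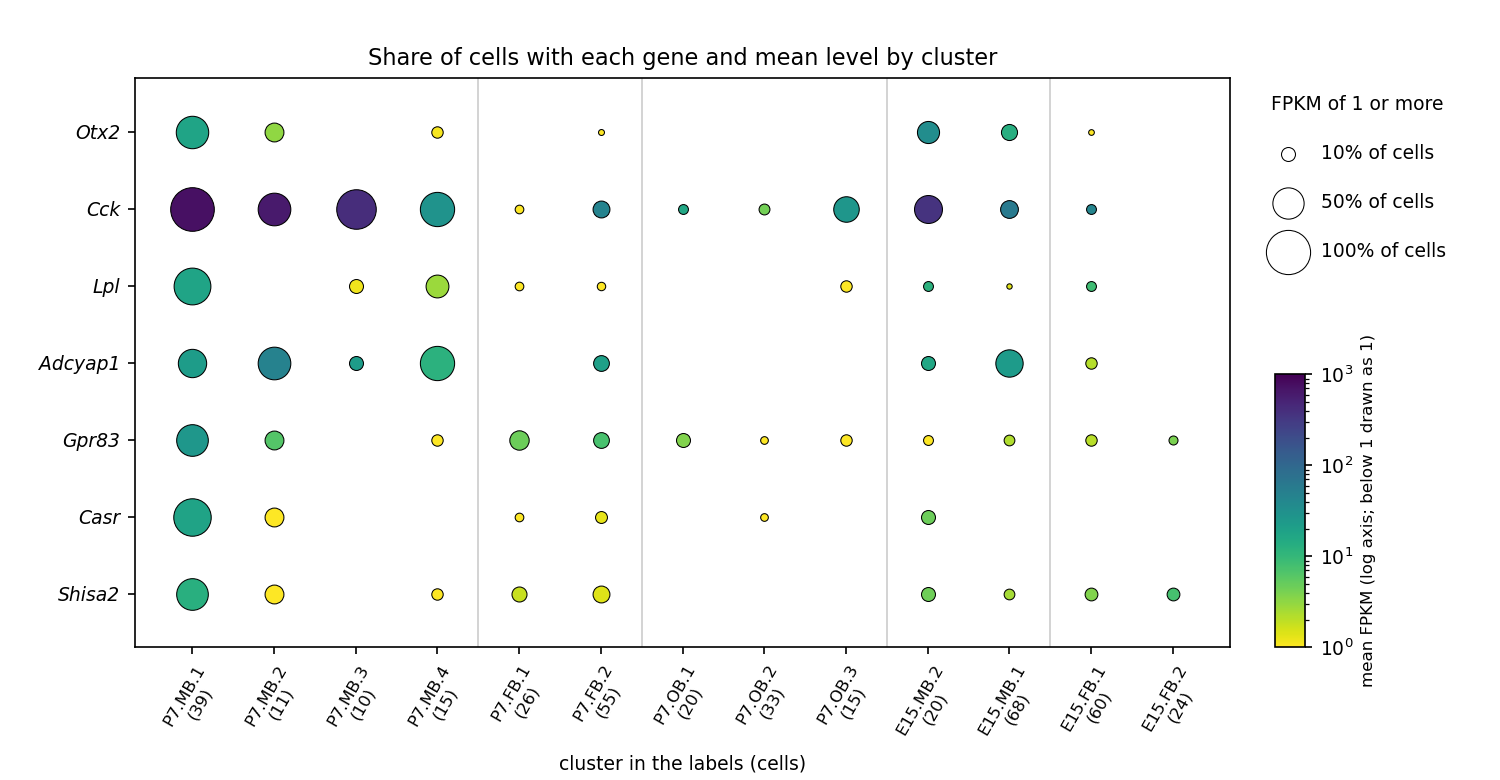
Members in the 13 labelled clusters. Point size is the percent of cells with an FPKM of 1 or more and colour is mean FPKM on a log axis (means below 1 drawn as 1). P7.MB.1 has a large point for every member, whereas Cck and Adcyap1 also have large points in other P7 MB clusters.

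Otx2, the transcription factor among the members, was found in 21 of the 39 P7.MB.1 cells (53.8%; exact Clopper-Pearson 95% interval 37.2 to 69.9%, which covers counting error only, as do all intervals here). Its level in P7.MB.1 ran between 0 and 115.9 FPKM with a median of 3.88, and the mean was 17.9 ± 25.9 FPKM (SD over cells). Elsewhere in P7 MB it was in 2 of 11 P7.MB.2 cells (mean 3.18 FPKM), in no P7.MB.3 cell and in 1 of 15 P7.MB.4 cells (mean 1.11 FPKM). The highest P7.MB.2 cell had 32.1 FPKM and the 1 positive P7.MB.4 cell 16.7 FPKM, so the ranges of the clusters overlapped and all of them included 0. On the matched plate alone, P7.MB.1 averaged 30.2 FPKM with 66.7% of 15 cells positive; on the exchanged plates it averaged 10.2 FPKM with 45.8% of 24 cells positive. The lower mean on the exchanged plates went with their lower summed FPKM, whose part in it was not tested.

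Cck, which encodes the precursor of cholecystokinin, had the highest level of the 7 genes. It was in 38 of 39 P7.MB.1 cells (97.4%) with a median of 597 FPKM, a highest cell of 3117 FPKM and a mean of 761 ± 792 FPKM. P7.MB.2 had a mean of 625.1 ± 1119 FPKM but a median of 1.03 FPKM, with 6 of 11 cells positive and 44.4% of its summed FPKM from 1 cell. P7.MB.3 had a mean of 412 FPKM and a median of 67.7 FPKM, with 8 of 10 cells positive and 62.2% of the sum from 1 cell; its mean without that cell was 173 FPKM. In P7.MB.4, 9 of 15 cells had Cck, at a mean of 28.7 ± 47.5 FPKM and a highest cell of 177 FPKM. Cck was thus found in nearly all P7.MB.1 cells and was high in most of them. It was also high in some cells of P7.MB.2 and P7.MB.3, and low in P7.MB.4. The ranges overlapped, and positive P7.MB.1 cells went down to 3.87 FPKM, below the P7.MB.4 mean. By plate, P7.MB.1 averaged 1333 FPKM on the matched plate and 403 FPKM on the exchanged plates, with 100% and 95.8% of cells positive.

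Adcyap1, the PACAP precursor, did not follow the label of the list: it was in 16 of 39 P7.MB.1 cells (41.03%; 25.6 to 57.9%), at a median of 0 and a mean of 22.3 ± 41.3 FPKM. The share was no lower in P7.MB.2, with 6 of 11 cells (54.5%) and a mean of 46.4 ± 81.7 FPKM, 54.2% of it from 1 cell. In P7.MB.3 a single cell, at 222.7 FPKM, gave the whole mean of 22.3 FPKM. P7.MB.4 had 9 of 15 positive cells (60%), at a mean of 12.1 ± 17.3 FPKM. Of the 4 P7 MB clusters, P7.MB.2 had the highest mean of Adcyap1 and P7.MB.4 the highest share of positive cells, and the intervals of the shares overlapped with that of P7.MB.1. The mean in P7.MB.1 was 37.2 FPKM on the matched plate and 12.97 FPKM on the exchanged plates.

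The receptor gene Gpr83 was in 20 of 39 P7.MB.1 cells (51.3%; 34.8 to 67.6%), with a median of 7.38, a highest cell of 245 and a mean of 25.7 ± 49.2 FPKM. It was in 2 of 11 P7.MB.2 cells (mean 6.32 FPKM, 61.2 FPKM in 1 cell), was listed at 0 in all P7.MB.3 cells and was in 1 of 15 P7.MB.4 cells (mean 0.26 FPKM). Casr, the calcium-sensing receptor, was in 28 of 39 P7.MB.1 cells (71.8%; 55.1 to 84.999%), with a median of 9.58, a highest cell of 103 and a mean of 18.15 ± 24.5 FPKM. Neither P7.MB.3 nor P7.MB.4 had a cell with Casr at an FPKM of 1, and the 2 positive cells of P7.MB.2 reached at most 2.50 FPKM. Casr was therefore the member with the clearest separation: of the 30 P7 MB cells with it, 28 carried the P7.MB.1 label. The share of P7.MB.1 cells with Casr was 73.3% on the matched plate and 70.8% on the exchanged plates, and the mean 31.3 and 9.96 FPKM. The corresponding shares of Gpr83 were 53.3% and 50%, and the means 46.1 and 12.998 FPKM. The 2 exchanged plates differed in this share. Gpr83 was in 9 of 12 P7.MB.1 cells (75%) on 1 of them and in 3 of 12 (25%) on the other.

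Lpl, the secreted enzyme that hydrolyses the triglycerides of lipoproteins, was in 27 of 39 P7.MB.1 cells (69.2%; 52.4 to 82.98%), with a median of 8.31, a highest cell of 141 and a mean of 17.9 ± 27.4 FPKM. It was listed at 0 in every P7.MB.2 cell, and was in 1 of 10 P7.MB.3 cells (mean 1.16 FPKM) and 4 of 15 P7.MB.4 cells (mean 2.81 FPKM, highest 25.9 FPKM). Shisa2 was in 20 of 39 P7.MB.1 cells (51.3%), with a median of 1.10, a highest cell of 73.9 and a mean of 12.9 ± 20.7 FPKM. It was in 2 of 11 P7.MB.2 cells and 1 of 15 P7.MB.4 cells, at no more than 5.86 FPKM, and was listed at 0 in P7.MB.3. Both genes were higher on the matched plate, where the P7.MB.1 means were 30.4 FPKM for Lpl and 25.8 FPKM for Shisa2, than on the exchanged plates, where they were 10.0 and 4.83 FPKM.

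**Figure D2:**
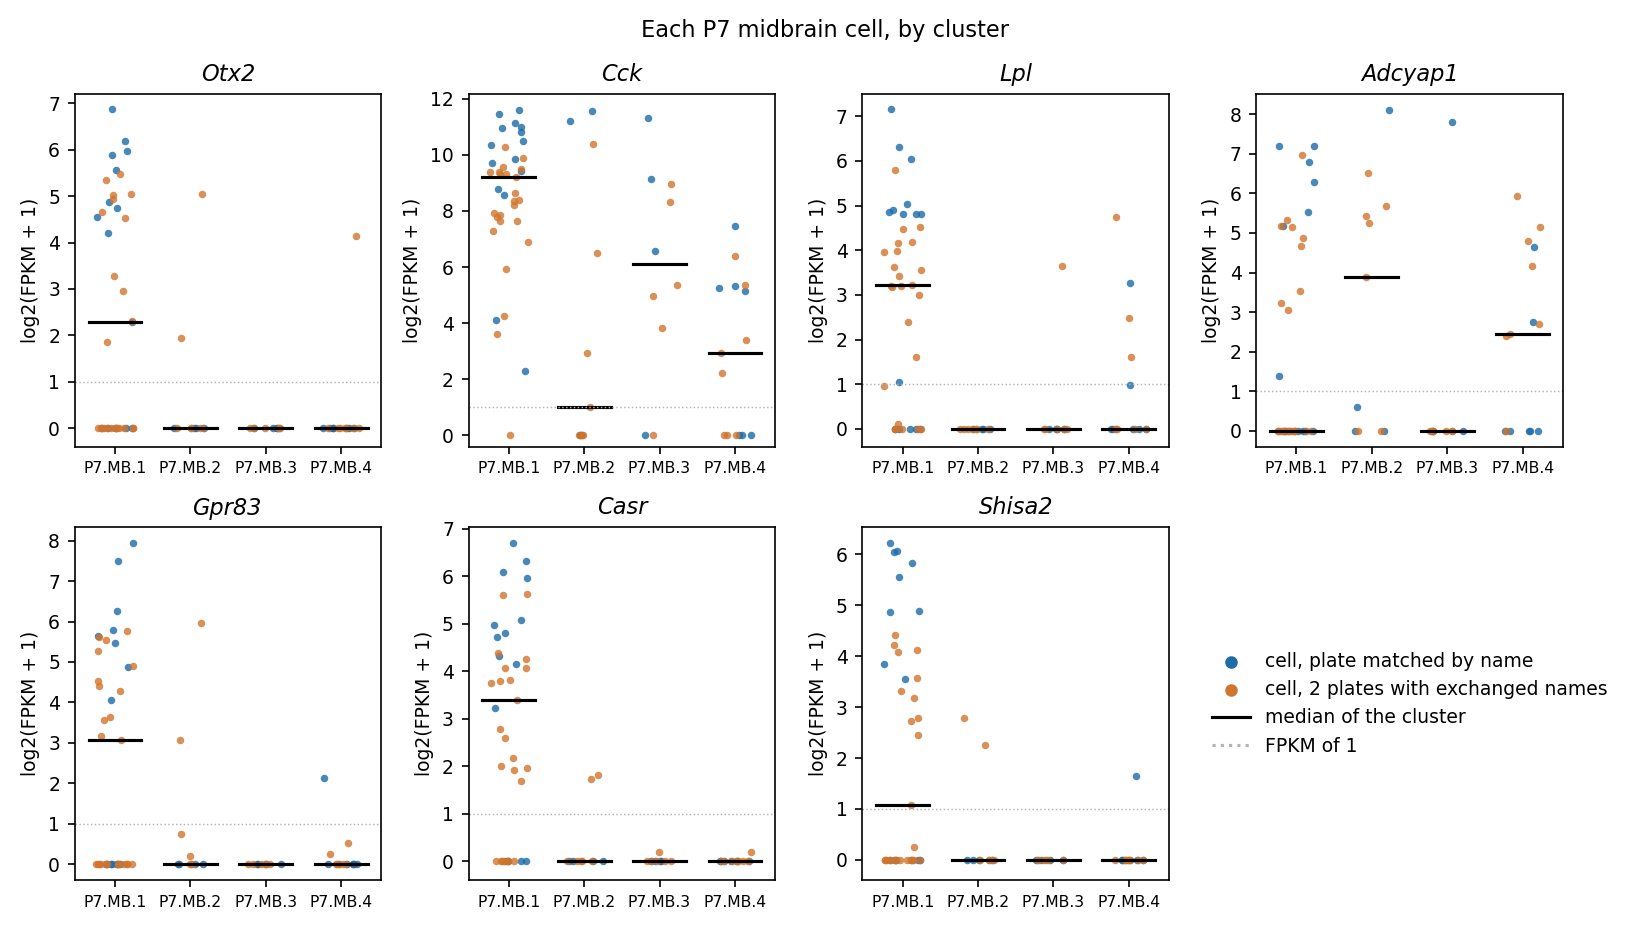
Each P7 MB cell by cluster, as log2(FPKM + 1). Blue points are cells of the plate whose names match, orange points those of the 2 plates with exchanged names, the black line is the cluster's median and the dotted line an FPKM of 1. Casr cells above the line are nearly all in P7.MB.1 (28 of 30), and Adcyap1 cells are spread over the clusters.

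Set against P7.MB.4, 6 of the 7 members were higher by 2-fold or more in P7.MB.1, as were 3.28% of all 28952 features. The members were chosen from contrasts of this kind, so nothing is read from the count. On the log2 scale the largest difference was that of Cck (4.68), followed by Gpr83 (4.40), Casr (4.25), Shisa2 (3.61), Otx2 (3.16) and Lpl (2.31), and the smallest that of Adcyap1 (0.83). The members' median was 3.61 and that of all features 0. Within the matched plate all 7 were above 2-fold, with Adcyap1 at 2.86; within the exchanged plates Adcyap1 was at -0.52 and the other 6 between 1.12 and 4.42. Adcyap1 was the only member whose direction differed between these plates.

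Set against P7.MB.3, 5 members were higher by 2-fold or more in P7.MB.1, against 7.06% of all features. Lpl was higher by 3.13 and Casr by 4.24 on the log2 scale. Otx2, Gpr83 and Shisa2 were listed at 0 in P7.MB.3, which gives no fold of its own but counts as higher through the pseudocount of 1. Cck (0.88) and Adcyap1 (0.00) were not past 2-fold over all cells, and here the plates differed: Cck was at 0.73 on the matched plate and 1.42 on the exchanged plates, and Adcyap1 at -0.57 on the matched plate and, with P7.MB.3 listed at 0, past 2-fold on the exchanged plates. Within the exchanged plates all 7 members were thus past 2-fold. Set against P7.MB.2, 5 members were again at least 2-fold higher (5.82% of all features) and 1, Adcyap1, was at least 2-fold lower (4.96% of all features). The log2 folds were 3.74 for Casr, 2.89 for Shisa2, 2.17 for Otx2, 1.87 for Gpr83, 0.28 for Cck and -1.03 for Adcyap1, and Lpl was listed at 0 in P7.MB.2. Adcyap1 was at -0.88 on the matched plate, short of 2-fold. In this comparison 3 members were at least 2-fold higher within the exchanged plates, where Otx2 was at 0.90 and Gpr83 at 0.36. Adcyap1 was at least 2-fold lower there, at -1.30. Taken singly, these 2 plates had Gpr83 at 3.59 and -0.45, and Adcyap1 at 0.50 and -2.82. They hold only 3 and 4 P7.MB.2 cells. On the second, Gpr83 averaged 12.29 FPKM in P7.MB.1 and 17.21 FPKM in P7.MB.2. The P7.MB.2 mean was 2.53 FPKM without its highest cell (61.2 FPKM). On the first, Adcyap1 averaged 19.999 FPKM in P7.MB.1, and 10.59 FPKM without its highest cell. It averaged 13.89 FPKM in P7.MB.2 there, from 1 of 3 cells. On the second plate all 4 P7.MB.2 cells had Adcyap1. The 3 comparisons share the P7.MB.1 cells.

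**Figure D3:**
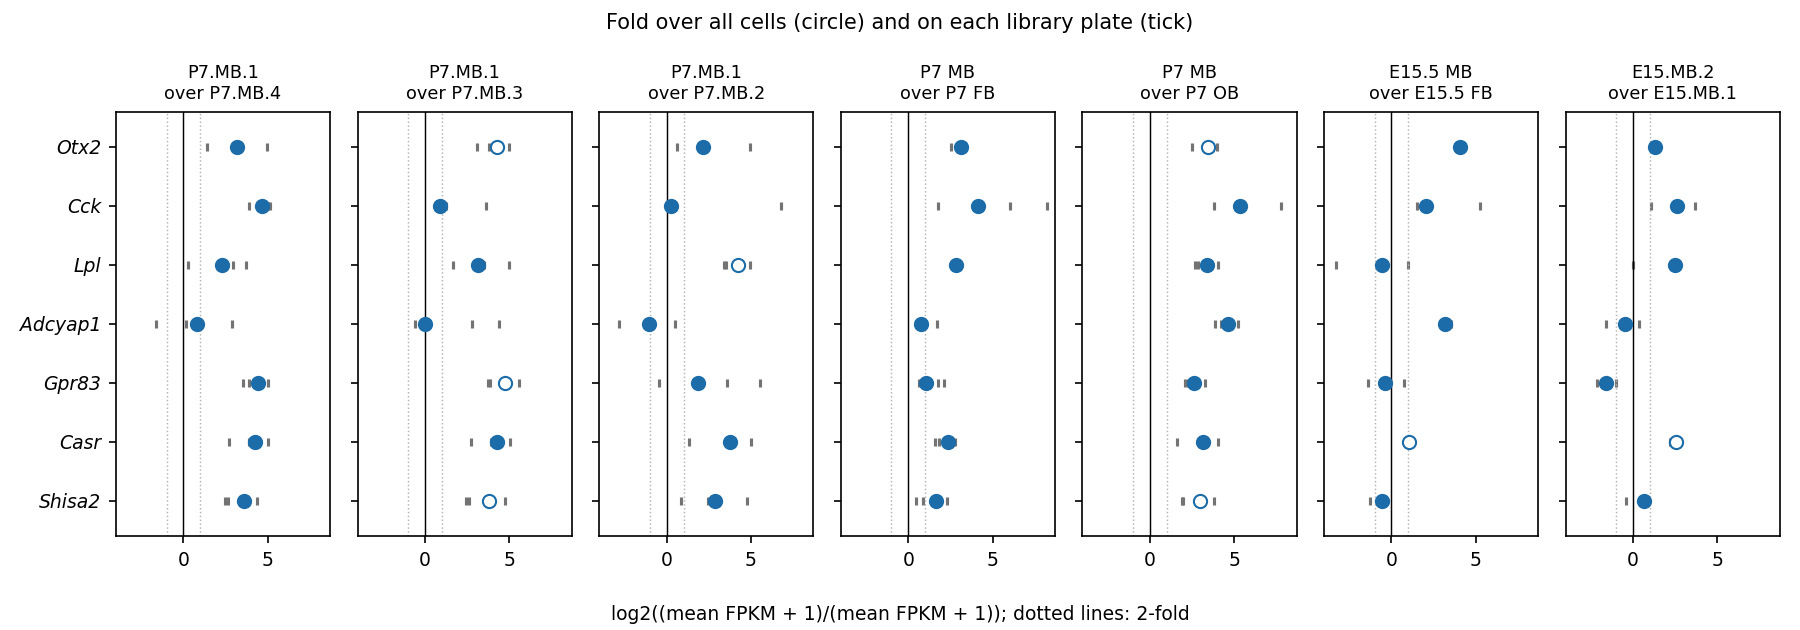
log2 folds of the 7 members in 7 of the comparisons. Circles use all cells, ticks each library plate by itself, open circles stand for a group listed at 0 and dotted lines mark 2-fold. Casr, Cck and Gpr83 lie past 4 in P7.MB.1 over P7.MB.4, and ticks of one gene are up to several log2 units apart.

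Across regions at P7, the members were higher in the midbrain. P7 MB had Otx2 at 9.99 ± 20.7 FPKM in 24 of 75 cells, against 0.28 FPKM in 1 of 81 P7 FB cells and none of 68 P7 OB cells (0 of 68 allows a share of up to 5.28%, the upper exact bound). Cck averaged 548 ± 805 FPKM in P7 MB (81.3% of cells), against 30.6 FPKM in P7 FB (11.1%) and 12.7 FPKM in P7 OB (11.8%). Lpl was in 42.7% of P7 MB cells, in 3 P7 FB cells and in 1 P7 OB cell, and Casr in 40% of P7 MB cells, in 5 P7 FB cells and in 1 P7 OB cell. Each of these 4 genes was in a larger share of cells in P7 MB than in P7 FB or P7 OB.

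For the other members the forebrain was closer to the midbrain in mean level. Adcyap1 averaged 23.8 FPKM in P7 MB (32 of 75 cells) and 13.9 FPKM in P7 FB (7 of 81 cells, all of cluster P7.FB.2), 68.7% of it from 1 cell; no P7 OB cell had it. Gpr83 was in 30.7% of P7 MB cells at 14.4 ± 37.9 FPKM, in 14.8% of P7 FB cells at 6.54 FPKM and in 4 P7 OB cells. Shisa2 was in 30.7% of P7 MB cells at 6.87 FPKM, in 13.6% of P7 FB cells at 1.54 FPKM and was listed at 0 in P7 OB. These 3 genes are those with the smallest difference between P7 MB and P7 FB.

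In P7 MB over P7 FB, 6 members were at least 2-fold higher (2.27% of all features): Cck by 4.12, Otx2 by 3.11, Lpl by 2.80, Casr by 2.34, Shisa2 by 1.63 and Gpr83 by 1.03 on the log2 scale, with Adcyap1 at 0.73. Gpr83 was at 0.63 on the matched plate and Shisa2 at 0.71 on the exchanged plates, both then short of 2-fold, while Adcyap1 was past it on the exchanged plates, at 1.21. In P7 MB over P7 OB all 7 passed 2-fold upward (9.14% of all features): Cck by 5.33, Adcyap1 by 4.62, Lpl by 3.38, Casr by 3.14 and Gpr83 by 2.64, while Otx2 and Shisa2 were listed at 0 in P7 OB. Both comparisons share the P7 MB cells. The median number of genes per cell was also highest in P7 MB and lowest in P7 OB, and its part in these differences was not tested.

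One P7 FB cell stood apart. It had all 7 members (Otx2 22.3, Cck 402, Lpl 12.9, Adcyap1 9.46, Gpr83 13.2, Casr 37.2 and Shisa2 12.4 FPKM) on the plate whose names match. It also had Th at 4569, Slc6a3 at 3513 and Pitx3 (a midbrain dopaminergic transcription factor) at 58.7 FPKM, and Gad1, the GABA-synthesizing enzyme found in 91.4% of P7 FB cells, at 0. It was the only passed cell outside P7 MB and E15.5 MB with more than 3 members. Without it, Otx2 was listed at 0 in the other 80 P7 FB cells, Casr averaged 0.63 FPKM, and 6 members were still past 2-fold in P7 MB, by 2.95 for Lpl, 2.69 for Casr and 1.04 for Gpr83. This alternative was chosen after the values were seen.

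At E15.5 all 7 members were found in midbrain cells, most of them in few. Adcyap1 was in 28 of 88 E15.5 MB cells (31.8%) at 21.8 ± 57.6 FPKM, Cck in 19 cells (21.6%) at 129 ± 426 FPKM and Otx2 in 14 cells (15.9%) at 18.0 ± 48.8 FPKM. Shisa2 was in 6 cells, Gpr83 in 5, and Lpl and Casr in 2 each. E15.5 FB had Adcyap1 in 4, Cck in 3 and Otx2 in 1 of 84 cells, and 97.2% of its summed Cck came from 1 cell. Against E15.5 FB, 4 members were at least 2-fold higher in E15.5 MB (4.21% of all features): Otx2 by 4.06, Adcyap1 by 3.16 and Cck by 2.02 on the log2 scale, with Casr listed at 0 in E15.5 FB. Lpl (-0.56), Shisa2 (-0.54) and Gpr83 (-0.40) rested on 7 or fewer cells per region and differed between the 2 E15.5 plates. Gpr83 was at 0.77 on one plate and -1.38 on the other, Shisa2 at -0.24 and -1.29, and Lpl at 0.97 on the first and listed at 0 in E15.5 MB on the second.

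Within E15.5 MB the cluster E15.MB.2 had Th in 65% of its cells (mean 3780 FPKM) and E15.MB.1 in 19.1% (mean 29.6 FPKM). Cck was in 8 of 20 E15.MB.2 cells at 365 ± 759 FPKM and in 11 of 68 E15.MB.1 cells at 59.3 FPKM. Otx2 was in 5 of 20 E15.MB.2 cells at 34.4 FPKM and in 9 of 68 E15.MB.1 cells at 13.1 FPKM. Adcyap1 went the other way in share, with 2 of 20 E15.MB.2 cells at 16.5 FPKM and 26 of 68 E15.MB.1 cells at 23.3 FPKM. For E15.MB.2 over E15.MB.1, 4 members were at least 2-fold higher (6.36% of all features) and 1, Gpr83, at least 2-fold lower (8.49% of all features). The log2 folds were 2.60 for Cck, 2.48 for Lpl, 1.33 for Otx2, 0.63 for Shisa2, -0.48 for Adcyap1 and -1.63 for Gpr83, and Casr was listed at 0 in E15.MB.1. The Lpl value rested on 1 cell at 244 FPKM, and without the highest cell of each cluster Lpl was listed at 0 in both.

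Between ages, the largest log2 folds of means were those of the receptors. Gpr83 was in 30.7% of cells in P7 MB and in 5.68% in E15.5 MB. The share with Casr was 40% in P7 MB, against 2.27% in E15.5 MB, that with Cck 81.3% in P7 MB, against 21.6% in E15.5 MB, and that with Lpl 42.7% in P7 MB, against 2.27% in E15.5 MB. By share over these whole groups, the gap was largest for Cck. E15.5 MB consists mostly of E15.MB.1 cells (68, beside 20 of E15.MB.2), so the groups differ in their mix of clusters. Between P7.MB.1 and E15.MB.2 the shares were 97.4% and 40% for Cck, and 69.2% and 5% for Lpl. Cck did not have the largest gap there. For P7 MB over E15.5 MB, 4 members were at least 2-fold higher (1.19% of all features): Gpr83 by 2.48, Casr by 2.34, Cck by 2.08 and Lpl by 1.19 on the log2 scale. Shisa2 was at 0.97, Adcyap1 at 0.12 and Otx2 at -0.79, and the median of all features was -0.20. Otx2 was in more P7 MB cells (32%) than E15.5 MB cells (15.9%), whereas its mean was lower at P7. Among the cells that had it, the median was 26.97 FPKM in P7 MB and 103 FPKM in E15.5 MB. With every cell scaled to the same total, Otx2 was at 0.31, so its direction depended on the scaling.

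For P7.MB.1 over E15.MB.2, 4 members were at least 2-fold higher (2.64% of all features): Gpr83 by 4.67, Casr by 1.74, Shisa2 by 1.33 and Cck by 1.06. Lpl was at 0.51, Adcyap1 at 0.42 and Otx2 at -0.91. Within the exchanged plates only 1 of the 4, Gpr83, stayed past 2-fold, with Casr at 0.93. No library plate held both ages, and age, dissociation and plate cannot be told apart here; the summed FPKM per cell was higher on the E15.5 plates.

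The members were then counted per cell. In P7 MB, 26 of 75 cells had at least 4 of the 7 (34.7%; 24.0 to 46.5%), with 33.3% on the matched plate and 35.6% on the exchanged plates. Taken singly, the 2 exchanged plates had 45% and 28%. Of these 26 cells, 24 belonged to P7.MB.1, where they made up 61.5% of cells (44.6 to 76.6%). By plate, the P7.MB.1 share was 66.7% on the matched plate, and 75% and 41.7% on the 2 exchanged plates. P7.MB.1 had 3, 7, 5, 3, 5, 11 and 5 cells with 1, 2, 3, 4, 5, 6 and 7 members, and its median was 5. The counts were spread over the whole range, with the most cells at 6 members and another group at 2. The other P7 MB clusters had at most 4 members in a cell (P7.MB.2 and P7.MB.4, 1 cell each) or 2 (P7.MB.3).

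In P7 FB 52 of 81 cells had none of the members, and in P7 OB 54 of 68 had none and 14 had 1. In E15.5 MB 41 of 88 cells had none, 25 had 1, 16 had 2, 5 had 3 and 1 had 4. Within P7 MB the number of members per cell had an r of 0.03 with the labels' number of genes per cell over 75 cells. Within P7.MB.1 that r was 0.39 over 39 cells and between -0.03 and 0.54 by plate. The number of members thus moved with the number of genes detected on some plates, and its part in the spread was not tested.

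**Figure D4:**
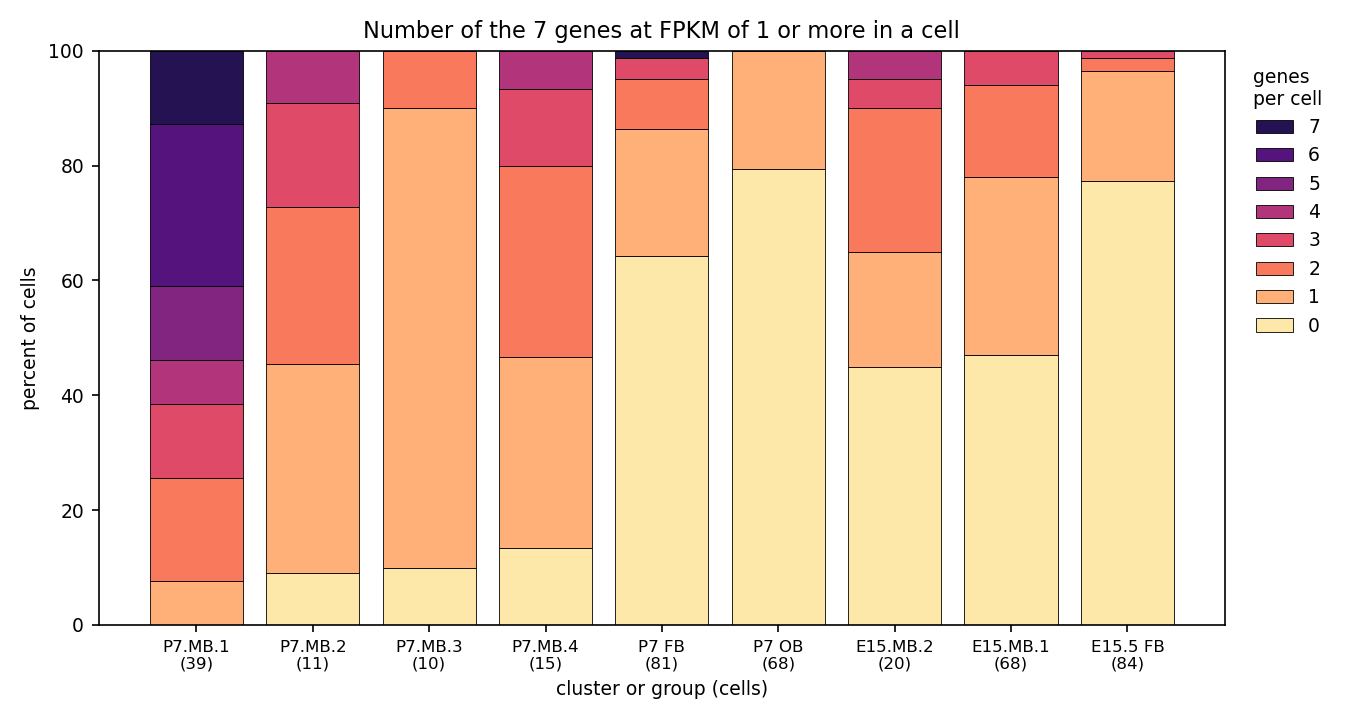
Percent of cells with each number of members, from 0 to 7, as stacked bars for P7.MB.1 to P7.MB.4, P7 FB, P7 OB, E15.MB.2, E15.MB.1 and E15.5 FB. P7.MB.1 is the only bar in which most cells (61.5%) have at least 4 members.

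Which members were found together was described by the Pearson r of log2(FPKM + 1) over cells. The cells share 3 library plates and differ in depth, and no p is given. Over the 39 P7.MB.1 cells, the 21 pairs ran between -0.11 and 0.70, with a median of 0.29 and 10 pairs above 0.3. The highest was Lpl with Gpr83 (r = 0.70, and 0.66 to 0.71 within plates): 19 of the 20 cells with Gpr83 also had Lpl. Gpr83 with Casr had an r of 0.52 (0.43 to 0.67 within plates) and shared 18 of the 20 Gpr83 cells, and Gpr83 with Shisa2 had an r of 0.51 (0.42 to 0.52) and shared 16 of 20 cells of each gene. Gpr83 was the member with most pairs above 0.3, namely 5 of 6.

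Adcyap1 had no pair above 0.3 in P7.MB.1, and its r with Cck was -0.11 (-0.50 to 0.18 within plates). Otx2 had an r of 0.47 with Lpl (-0.17 to 0.72 within plates), 0.47 with Casr (-0.05 to 0.59), 0.46 with Gpr83 (0.19 to 0.68) and 0.10 with Shisa2 (-0.25 to 0.18), so that all but the one with Gpr83 changed sign between plates. Over all 75 P7 MB cells, where the difference between clusters adds to the r, the pairs ran between -0.09 and 0.67 with a median of 0.43 and 15 above 0.3, again none of them with Adcyap1. Over the 88 E15.5 MB cells the median was -0.03 and 2 pairs were above 0.3: Cck with Casr (0.40, resting on 2 cells with Casr, both of which had Cck) and Otx2 with Cck (0.38, 0.10 to 0.59 within plates), where 8 cells had both of 14 with Otx2 and 19 with Cck.

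**Figure D5:**
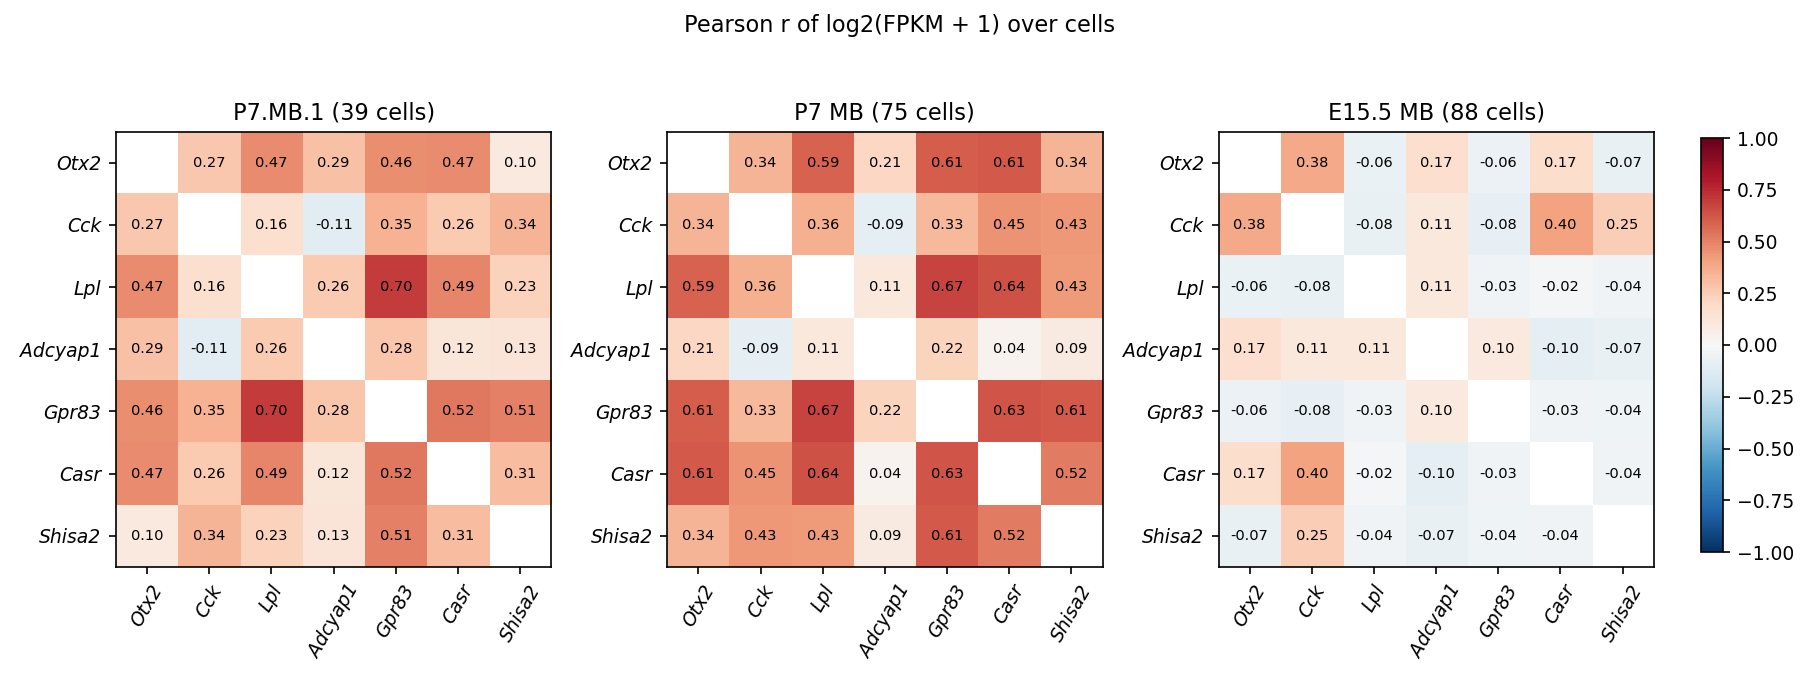
Pearson r of log2(FPKM + 1) for each pair of members over 39 P7.MB.1 cells, 75 P7 MB cells and 88 E15.5 MB cells. The highest value in P7.MB.1 is that of Lpl with Gpr83 (0.70), the Adcyap1 row holds no value above 0.3 in any of the 3 sets, and most E15.5 MB pairs are near 0.

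The genes most like each member were ranked by Pearson r in the same log values, over the means of the 13 clusters (7162 genes with enough signal) and over the 75 P7 MB cells (9440 genes). Neurod6, a basic helix-loop-helix transcription factor, was among the first 3 over clusters for Otx2 (0.89), Lpl (0.92), Gpr83 (0.90), Casr (0.97) and Shisa2 (0.94). Neurod6 averaged 52.6 FPKM in P7.MB.1, with 56.4% of cells positive, and 4.91 FPKM in the other P7 MB cells, with 5.56% positive. Tacr3, the neurokinin B receptor, was among the first 3 for Lpl (0.94), Gpr83 (0.72) and Casr (0.84). Gpr83 itself was among those of Casr (0.91) and Shisa2 (0.93). Each of the 13 points is the mean over the cells of 1 cluster, so that P7.MB.1 counts as 1 point.

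Over single P7 MB cells, Neurod6 led for Lpl (0.71), Gpr83 (0.77) and Shisa2 (0.64). The cholecystokinin receptor gene Cckar and the melanocortin receptor gene Mc3r were among the first 3 for Gpr83 (0.71 each) and Casr (0.69 and 0.68). Otx2 was closest to Kcnab1 (a potassium channel subunit, 0.67), Gkn1 (0.63) and Casr (0.61). Cck was closest to Plpp4 (0.90), Kctd6 (0.90) and Dhrs3 (0.86) over clusters and to Necab1 (0.68) over cells; Dhrs3 was also among the first 3 of Otx2 over clusters (0.82). Adcyap1 was closest to Rasgrp2 (0.92), Hpca (0.92) and Xkr4 (0.91) over clusters and to Flrt2 (0.48) over cells. The highest r over cells was lowest for Adcyap1.

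Genes that act with the members were read in the same way, each list by its count past 2-fold in P7.MB.1 over P7.MB.4, where 3.28% of all features were higher and 4.41% lower. Of 5 receptors for cholecystokinin and PACAP, 2 were higher and none lower (median log2 fold 0.11): Cckbr by 2.40 (7.63 FPKM in P7.MB.1, 0.64 FPKM in P7.MB.4), and Cckar, which was in 41.03% of P7.MB.1 cells at 11.8 FPKM and listed at 0 in P7.MB.4. Adcyap1r1, the PACAP receptor, was in 92.3% of P7.MB.1 cells at 42.3 FPKM and in all P7.MB.4 cells at 39.1 FPKM, and was listed at 0 in all 10 P7.MB.3 cells. Transcripts of a peptide and of a receptor for it were thus found in the same cluster for both cholecystokinin and PACAP. The other 2 of the 5 receptors were listed at 0 in P7.MB.1. Adcyap1 and Adcyap1r1 were also both found in P7.MB.4, with Adcyap1 in 60% of its cells. In the olfactory bulb Cckbr was the higher one, at 4.68 FPKM in P7 MB and 90.1 FPKM in P7 OB (log2 fold -4.0).

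Of 13 genes of peptide processing and dense-core granules, 1 was higher (Pcsk5, 1.08) and 1 lower (Cadps2, -1.04), at a median of 0.06. Of 8 partners of lipoprotein lipase, none was higher and 1, Lmf1 (needed for the maturation of the lipase), was lower (5.61 FPKM in P7.MB.1, 13.7 FPKM in P7.MB.4, log2 fold -1.16). Of 7 other Shisa genes, Shisa6, an auxiliary subunit of AMPA-type glutamate receptors, was higher (22.5 FPKM in P7.MB.1, 0.13 FPKM in P7.MB.4, log2 fold 4.38) and none was lower. Of 7 G protein and regulator genes, none was higher and Rgs4 was lower (-1.30). Lists of this size with 1 gene or none past 2-fold in a direction lie near the shares of all features, and nothing is read from these 4 counts.

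Of 8 Otx and Otx2-linked transcription factors, 3 were higher in P7.MB.1 than in P7.MB.4: Neurod6 (log2 fold 4.82), Lmx1a (1.69; 12.8 FPKM in P7.MB.1, 3.29 FPKM in P7.MB.4) and Otx1, which averaged 9.97 FPKM in P7.MB.1 (7 of 39 cells) and was listed at 0 in P7.MB.4. Sox6 was lower (-1.79). Of 10 other genes known from the ventral tegmental area, 8 were higher and none lower in P7.MB.1 than in P7.MB.4 (3.28% of all features higher, 4.41% lower; median of the list 1.54), among them Slc17a6 (3.47), Nrp2 (2.89), Grp (2.31) and, again, Neurod6; Nts was listed at 0 in P7.MB.1. The list had 5 higher and 1 lower against P7.MB.3 (7.06% and 6.71% of all features). Against P7.MB.2 it had 4 higher and 3 lower (5.82% and 4.96% of all features). It too was put together with these values known.

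Markers of GABAergic, glial and endothelial cells were low in P7.MB.1. The sum of 3 GABAergic markers had a median of 0 and a highest cell of 2.03 FPKM, that of 5 astrocyte markers a median of 0 and a highest cell of 37.3 FPKM, that of 6 microglia markers a highest cell of 4.64 FPKM with 4 of the 6 listed at 0, and that of 5 endothelial markers a highest cell of 21.8 FPKM with 3 of the 5 listed at 0. The sum of 6 oligodendrocyte markers ran between 0 and 57.3 FPKM with a median of 1.13, and over the 39 cells it had an r of 0.55 with Gpr83, 0.51 with Cck and 0.42 with Lpl in log values. Its part in these members' values was not tested. The sum of 6 genes of the periaqueductal list ran between 5.61 and 745 FPKM with a median of 46.6, and 12 of the 39 cells had 100 or more; its defining marker Vip was in 28.2% of P7.MB.1 cells. The sum of 7 immature-neuron genes ran between 0.961 and 129 FPKM with a median of 33.5, and 8 cells had 100 or more. The part of these lists was not tested either. The sum of 15 midbrain dopaminergic genes in the same cells ran between 1077 and 9385 FPKM with a median of 2654.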

How the data were processed

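Gene-level FPKM of 473 single cells (polyA RNA, Smart-Seq2) was deposited by the authors as 1 table, made with HISAT2, Cuffnorm and the mm10 genome per the submitters' processing notes; the versions are not given in the sources used here. Depth is unknown, because no whole-fragment steps could be recovered from the values, so no count model was used; low values and zeros can be missed transcripts. Groups, clusters and quality control are those of the labels, and the 77 failed cells were left out. Of 28952 features, 28636 had a symbol, and 20508 had the same identifier version in GENCODE M21.

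Columns were matched to cells by name, except that 2 P7 library plates were exchanged well by well. This choice rests on the number of genes per cell, not on the members' values.

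With 1 pool of animals per group, results are means with SD over cells, shares of cells at an FPKM of 1 or more with exact Clopper-Pearson 95% intervals, and log2 folds of means with a pseudocount of 1. A list is described by its count past 2-fold. Named besides the members were the 2 to 4 genes of each list with the largest difference and the 3 genes most like each member; for the latter, a gene needed a mean of at least 20 FPKM and a share of at least 50% in 1 cluster, or a share of at least 20% of P7 MB cells. The members, lists and clusters to compare were chosen with earlier results of these data known. Scripts used Python 3.11.15, NumPy 2.4.6, pandas 2.3.3 and SciPy 1.17.1. Only the fold calculation was tested on simulated data, with changes planted in highly expressed genes without zeros. Shares, counts per cell and r values were not tested in this way. Alternatives were other pseudocounts, means of log2 values, cells scaled to 1 total, plates left out or not exchanged, failed cells included, the highest cell left out and, added after the values were seen, 1 P7 FB cell left out.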

Additional observations from a re-analysis of the deposited data

Results flagged for a closer look

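In P7.MB.3, which has 10 cells, the highest cell lay far from the others for each of the 4 members that were not listed at 0 throughout by Dixon's criterion. By chance it marks about 1 group in 20 where values are continuous; Lpl, Adcyap1 and Casr were at 0 in the other 9 cells, so that they met the criterion by construction and that rate does not apply to them. Taking the highest cell of each gene by itself, Cck was at 2559 FPKM, Adcyap1 at 222.7 FPKM, Lpl at 11.6 FPKM and Casr at 0.144 FPKM, under the FPKM of 1 taken as detection. The P7.MB.3 means of Adcyap1 and Lpl rest almost wholly on these single cells.

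Of the 20 P7 MB cells that failed the labels' quality control and entered no comparison, 2 had at least 4 members (10%), against none of 14 failed P7 FB cells and none of 27 failed P7 OB cells. One of the 2 had 6 members, with Th at 2015 and Slc6a3 at 232 FPKM, and the other had all 7, with Th at 964 and Slc6a3 at 340 FPKM.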

How the results depend on the processing

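No paired analysis was possible because each group is 1 pool of animals and no test was run. No member past 2-fold changed sign under any alternative, but none of these took an exchanged plate by itself. On single exchanged plates 2 signs did change, both in P7.MB.1 over P7.MB.2. Gpr83 (1.87 over all cells) was at -0.45 on 1 plate, and Adcyap1 (-1.03 over all cells) at 0.50 on the other. These plates hold 4 and 3 P7.MB.2 cells. Leaving out 1 cell, in P7.MB.2 for Gpr83 and in P7.MB.1 for Adcyap1, reversed the order of the means. These sign changes therefore rest on single cells. Counts of members at least 2-fold higher moved by over 1.5 times as follows. With a pseudocount of 10, they were 1 in P7 MB over P7 FB (6 in the main analysis), 3 in P7 MB over P7 OB (7), 1 in E15.MB.2 over E15.MB.1 (4), 2 in P7 MB over E15.5 MB (4) and 2 in P7.MB.1 over E15.MB.2 (4). With means of log2 values, they were 2 in E15.5 MB over E15.5 FB (4) and 1 in E15.MB.2 over E15.MB.1 (4). With only the exchanged P7 plates, they were 3 in P7.MB.1 over P7.MB.2 (5) and 1 in P7.MB.1 over E15.MB.2 (4), and, within that tolerance, 7 in P7.MB.1 over P7.MB.3 (5). With no exchange of plates, 4 were higher in P7 MB over P7 OB (7), and 13.3% of P7 MB cells had at least 4 members (34.7%). That share was 22.7% with 10 FPKM as the minimum. The causes were not tested. Shares of all features under these alternatives are not given here, so no move is read as particular to the members. Of the single-gene folds, 450 moved by less than their spread over plates and 201 by more. Low shares rest on few cells, and a gene listed at 0 may be below detection at this unknown depth.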
